A study of Gossypium hirsutum and Gossypium barbadense with 16 samples.

Results

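Among the *G. hirsutum* genes paired with a *G. barbadense* ortholog, 119 were expressed in the ovule epidermis of both wild-type cottons on the day of anthesis and low in the fiberless mutant GhMD17. They were picked by their measured values. The lowest of the 4 wild-type epidermal libraries at 0 days post anthesis (DPA) had to exceed 5 FPKM and to be at least 3 times the highest of the 4 GhMD17 libraries. FPKM are fragment numbers scaled for transcript length and for library size. Of 124 genes that met these limits, 5 were left out because their lowest fiber library was at least 1.5 times the highest of the 12 epidermal libraries. The table held 52514 orthologs, of which 42627 were detected in some library and entered the tests, and 13502 were over 5 FPKM in all 4 wild-type 0 DPA libraries. The last number is the pool from which the members could come.

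Cells were cut from ovule sections by laser capture microdissection, and RNA was sequenced in 8 groups of 2 biological replicates. GhTM-1 is wild-type *G. hirsutum* with lint and fuzz fibers, and Gb3-79 is wild-type *G. barbadense* with almost only lint. GhMD17 is a naturally occurring naked-seed mutant in a *G. hirsutum* background, attributed by the study to the loci N1, n2 and n3, so it is 1 line and not a single-gene mutant. All 3 lines gave epidermal cells at both 0 and 2 DPA, and the wild-type lines also gave fiber cells at 2 DPA. At 0 DPA and in GhMD17 the capture took the whole outer layer, which in the wild type includes fiber initials. In the wild type at 2 DPA the protruding fibers were cut first, and the epidermis under them was collected in a second cut. A lower value in such bulk samples can mean fewer cells of a type or less RNA per cell, which cannot be told apart. Gb3-79 reads were mapped to another genome than those of GhTM-1 and GhMD17, so species and reference cannot be told apart either.

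A cotton fiber is a single cell that grows out of the outer epidermis of the ovule, and the decision to become a fiber is made around anthesis. MYB transcription factors related to those that shape leaf hairs and petal cells in other plants are central to this step in cotton. GhMYB25, the cotton homolog of *Arabidopsis* MYB106, is known to be needed for fibers to start and elongate on time, and the related MYB25-like gene for fibers to form at all. MYB4 of *Arabidopsis* is a repressor of phenylpropanoid genes.

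The 4 MYB genes among the members were homologs of MYB106 and MYB4, as named in the study. Gohir.1Z049716 is a MYB106 homolog on an unplaced sequence of the *G. hirsutum* assembly, and its paired *G. barbadense* gene carries an A04 identifier. Its level in epidermal cells at 0 DPA was 133 and 163 FPKM in GhTM-1 and 100.4 and 97.4 FPKM in Gb3-79. In GhMD17 it was listed at 0 and 0.306 FPKM at 0 DPA and at 8.51 and 8.27 FPKM at 2 DPA. At 2 DPA the wild-type epidermis held 116 and 115 FPKM in GhTM-1 and 74.3 and 64.2 FPKM in Gb3-79. Both epidermal groups lay below the fiber libraries of their own line, at 196 and 199 FPKM in GhTM-1 and 153 and 144 FPKM in Gb3-79. The gene was therefore highest in fiber cells of both lines and, in the mutant, visible at 2 DPA but next to nothing at 0 DPA. In GhTM-1 the log2 difference between fiber and epidermal cells was 0.77 (SE 0.15, limma adjusted p = 0.0124) and in Gb3-79 it was 1.09 (SE 0.15, limma adjusted p = 0.000940). In 2 DPA epidermis it was lower in Gb3-79 than in GhTM-1 (log2 difference -0.73, limma adjusted p = 0.0109). Both fiber calls were lost with a pseudocount of 0.1, at adjusted p = 0.354 and 0.121, while the differences stayed at 0.77 and 1.10. The GhTM-1 call was also lost without either fiber library or without replicate 2 of the epidermis, at adjusted p from 0.0543 to 0.0645, and at 0.103 when only the libraries compared were fitted.

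Gohir.D04G191100, the other MYB106 homolog, was at 211 and 271 FPKM in GhTM-1 and 133 and 160.5 FPKM in Gb3-79 at 0 DPA. GhMD17 had 0.196 and 1.30 FPKM at 0 DPA and 12.1 and 14.4 FPKM at 2 DPA. In 2 DPA epidermal cells the level was 157 and 154 FPKM in GhTM-1 and 87.5 and 86.9 FPKM in Gb3-79. It was higher in fiber cells, with 281 and 259.9 FPKM in GhTM-1 and 221 and 242 FPKM in Gb3-79, and no fiber library overlapped the epidermal ones of its line at that stage. The log2 difference passed the test in Gb3-79 (1.40, SE 0.25, limma adjusted p = 0.00452) and was 0.79 in GhTM-1 (limma adjusted p = 0.0894). A difference between the lines in this change did not pass the test (limma adjusted p = 0.728). With a pseudocount of 0.1 the Gb3-79 call was lost (limma adjusted p = 0.0772).

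The MYB4 homologs were far less abundant per length of transcript. Gohir.D01G158500 was at 13.5 and 25.8 FPKM in GhTM-1 and 12.4 and 8.79 FPKM in Gb3-79 at 0 DPA, and GhMD17 ranged from 0.261 to 2.66 FPKM over both stages. In the wild-type lines at 2 DPA its epidermal libraries ran from 6.77 to 15.1 FPKM and its fiber libraries from 12.3 to 24.3 FPKM. Gohir.D11G181000 was at 7.71 and 7.37 FPKM in GhTM-1, 9.81 and 14.0 FPKM in Gb3-79 and 0.839 to 1.92 FPKM in GhMD17. Its range at 2 DPA was 7.83 to 16.6 FPKM in wild-type epidermis and 11.5 to 16.2 FPKM in fiber. In neither gene did fiber and epidermal cells differ past the threshold (limma adjusted p from 0.118 to 0.998), and in Gohir.D11G181000 the sign of the GhTM-1 difference depended on single libraries. The study drew 2 further MYB4 homologs, Gohir.A01G167300 and Gohir.A11G173900, which met neither limit, with lowest wild-type 0 DPA libraries of 4.65 and 2.58 FPKM and highest GhMD17 libraries of 3.00 and 5.78 FPKM.

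**Figure D1:**
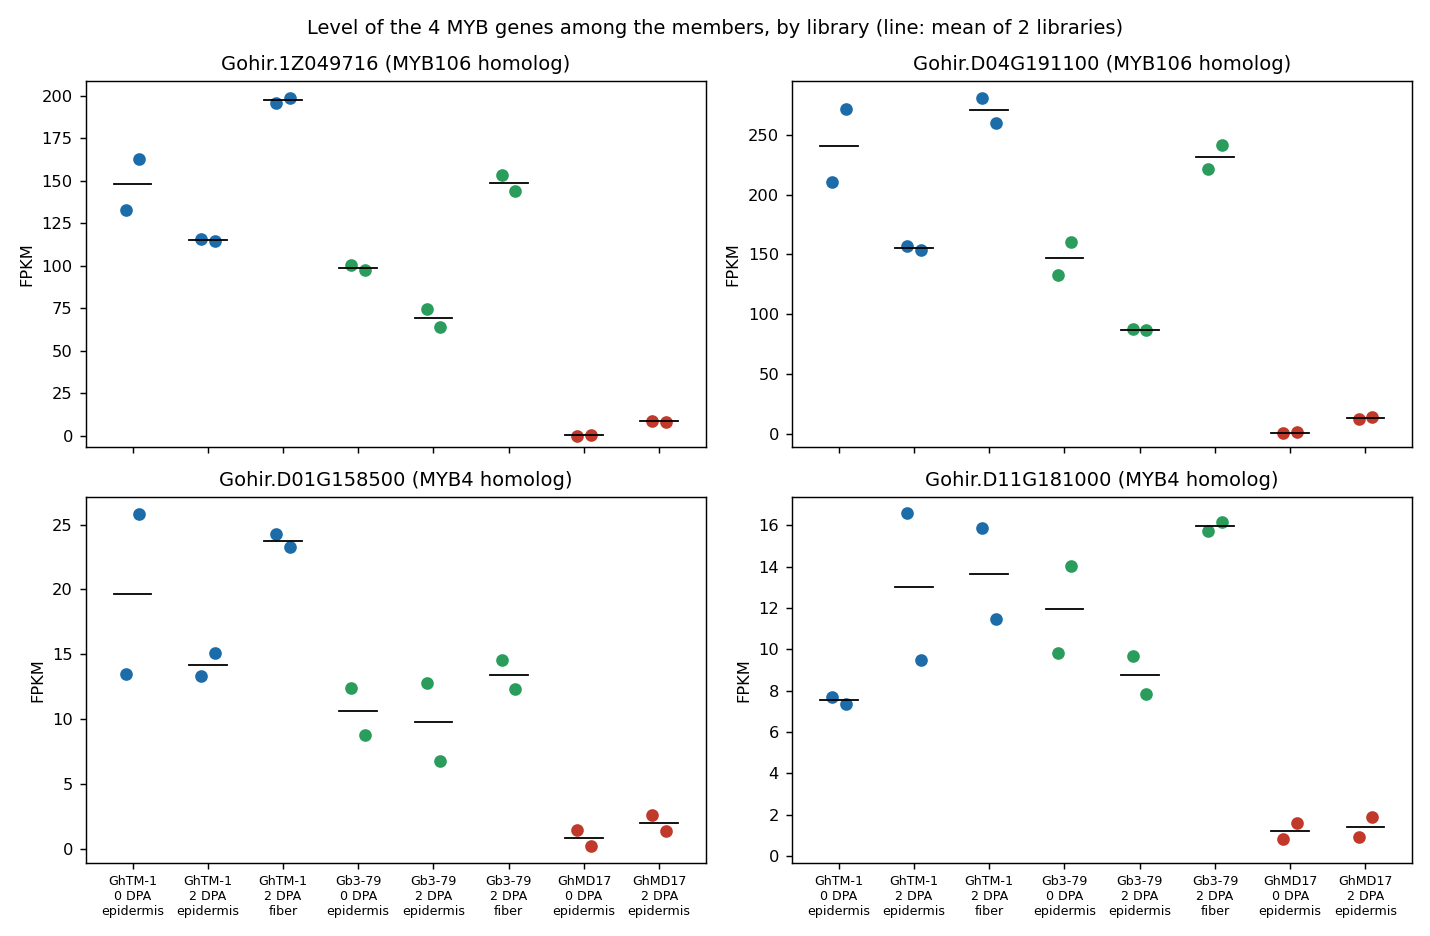
FPKM (vertical axis) of the 4 MYB members in each of the 8 groups (horizontal axis), with 1 point per library and a line at the mean of 2 libraries. By the mean of 2 libraries the MYB106 homologs lay highest in fiber cells of both lines, although 1 GhTM-1 library of 0 DPA was above 1 fiber library in Gohir.D04G191100, and all GhMD17 libraries lay below every wild-type library in each of the 4 genes.

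Levels of the 119 members spanned a wide range. The mean over the 4 wild-type 0 DPA libraries ran from 5.97 to 1785 FPKM with a median of 29.8 FPKM, and the lowest of these libraries exceeded 100 FPKM in 10 members and stayed under 10 FPKM in 30. The ratio of the lowest wild-type 0 DPA library to the highest GhMD17 library had a median of 4.95. It lay between 3 and 4 in 33 members and over 10 in 16. Just inside the limit were Gohir.D11G005500 (ratio 3.01) and Gohir.D11G331200 (ratio 3.04), and just outside were Gohir.A05G372200 (ratio 2.999) and Gohir.A09G161600 (ratio 2.99), so the list ends within a continuum. By summed FPKM the members made up 1.14% to 1.40% of the orthologs in wild-type epidermis at 0 DPA and 1.05% to 1.18% at 2 DPA. In fiber libraries their share was 1.81% to 1.93%, and in GhMD17 it was 0.108% and 0.114% at 0 DPA and 0.166% and 0.177% at 2 DPA. Such sums weigh abundant genes most. In GhMD17 replicate 1 of 0 DPA, Gohir.D10G116300 alone gave 236 of 565 FPKM. The median member was at 23.6 to 30.6 FPKM in wild-type 0 DPA libraries and 21.7 to 27.0 FPKM in fiber libraries. The rule chose on the 0 DPA and GhMD17 values, so nothing is read from their shares.

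The most abundant member, Gohir.D10G116300, stood well above the next. It was at 1391 and 1797 FPKM in GhTM-1 and 1987 and 1967 FPKM in Gb3-79 at 0 DPA, and still at 236 and 302 FPKM in GhMD17. GhMD17 kept 252 and 357 FPKM at 2 DPA, so this gene was reduced in the mutant but far from silent. Fiber cells had 3017 and 3999.9 FPKM in GhTM-1 and 3494 and 3484 FPKM in Gb3-79, against 1728 to 2135 FPKM over the wild-type epidermal libraries of that stage. Fiber and epidermal libraries did not overlap, yet the difference missed the threshold in both lines (limma adjusted p = 0.0515 and 0.0699).

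The next most abundant members were much nearer to silence in GhMD17 at 0 DPA. Gohir.D05G162000 stood at 299 and 334 FPKM in GhTM-1 and 468 and 499 FPKM in Gb3-79 at 0 DPA, against 10.6 and 7.70 FPKM in GhMD17. By 2 DPA GhMD17 had 53.5 and 42.7 FPKM. Its fiber level was 1623 and 1287 FPKM in Gb3-79, above the 558 and 445 FPKM of the epidermis (log2 difference 1.53, SE 0.31, limma adjusted p = 0.00786), whereas in GhTM-1 fiber it was 536 and 740.3 FPKM beside 299.5 and 610.2 FPKM. Fiber cells of Gb3-79 also held more of it than those of GhTM-1 (limma adjusted p = 0.0421).

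Gohir.D11G043200 was among the sharpest contrasts at high level. In wild-type 0 DPA epidermis it ran from 167 to 231 FPKM, while GhMD17 listed 0 and 0.661 FPKM at 0 DPA and 13.3 and 15.98 FPKM at 2 DPA. Wild-type levels at 2 DPA were 144 to 173 FPKM in epidermis and 226 to 274 FPKM in fiber, again without overlap but with no call in either line. Gohir.A13G175700 showed the same near absence in GhMD17 at 0 DPA, listed at 0 and 0.236 FPKM, and 10.9 and 5.86 FPKM at 2 DPA. Its wild-type values scattered more, from 78.7 to 185 FPKM at 0 DPA and from 55.8 to 243 FPKM at 2 DPA.

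The other members of high level were more varied. Gohir.D08G217100 had 178 and 237 FPKM in GhTM-1 and 191 and 158 FPKM in Gb3-79 at 0 DPA, 1.83 and 3.91 FPKM in GhMD17 at that stage and 16.7 and 11.1 FPKM at 2 DPA. Gohir.D05G106401 had 199 and 165 FPKM in GhTM-1, 151 and 152 FPKM in Gb3-79 and 8.86 and 15.2 FPKM in GhMD17 at 0 DPA. It was higher in fiber than in epidermal cells of both lines, at 264 to 434 FPKM against 119 to 190.3 FPKM. Gohir.A08G165850 kept more in the mutant, with 15.99 to 24.2 FPKM over the 4 GhMD17 libraries beside 143 to 315 FPKM in the wild type at 0 DPA.

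**Figure D2:**
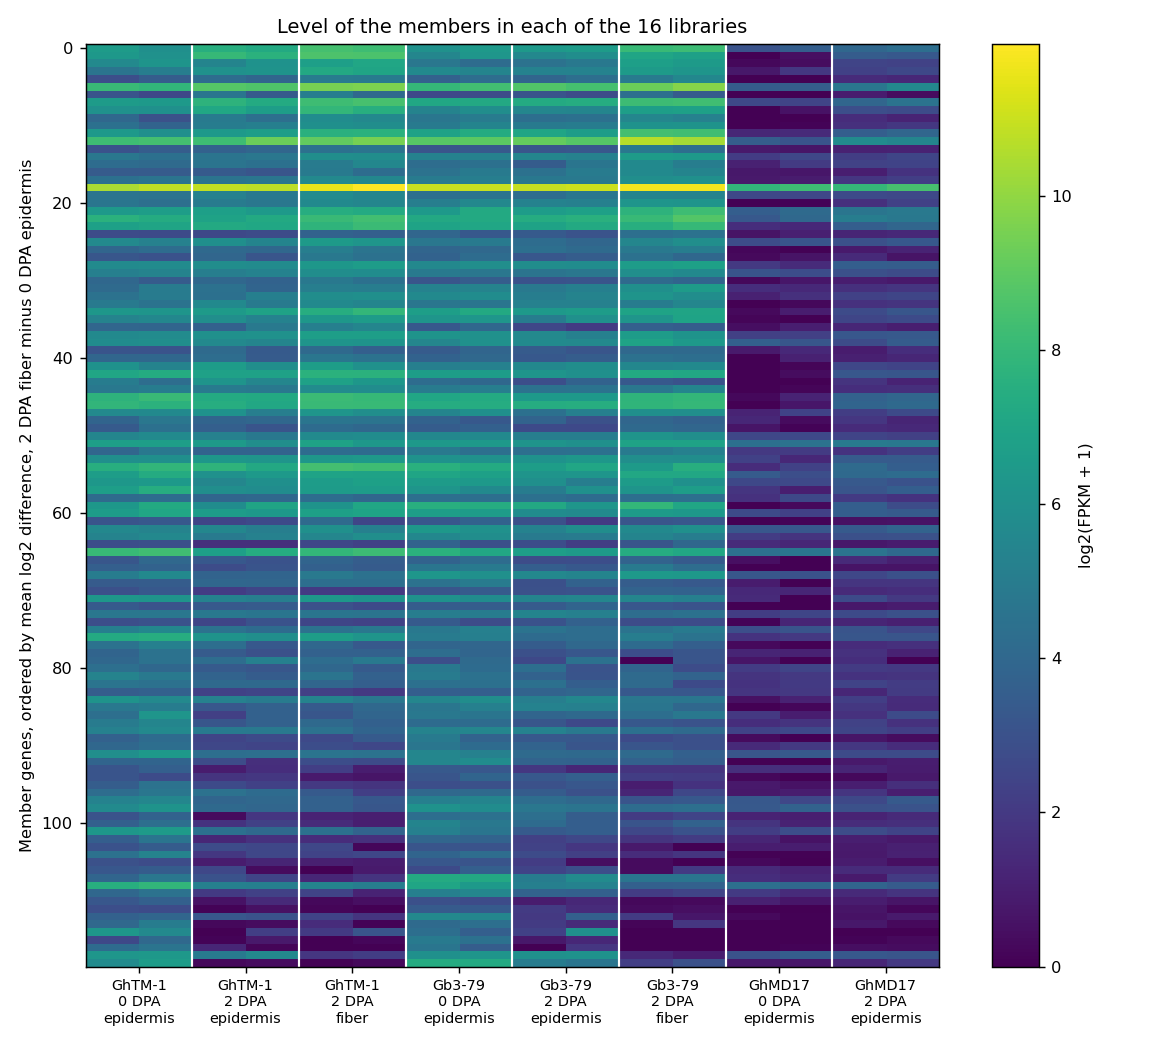
Levels of all 119 members as log2(FPKM + 1) by colour, with 1 row per gene and 1 column per library in 8 groups of 2. Rows are ordered by the mean log2 difference between 2 DPA fiber and 0 DPA epidermis, so genes highest in fiber are at the top and genes nearly lost from fiber at the bottom. Both columns of each group resemble each other in most rows, and the GhMD17 columns are darkest at 0 DPA.

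The largest ratios to GhMD17 belonged to a different set of members, of modest level in the wild type. Gohir.D13G077100 led with a ratio of 27.6. It was at 16.9 and 23.1 FPKM in GhTM-1 and 23.8 and 10.5 FPKM in Gb3-79 at 0 DPA, and from 0 to 0.381 FPKM across GhMD17. By 2 DPA it had also left the wild type, with 1.40 and 0.129 FPKM in GhTM-1 epidermis, 0 and 2.73 FPKM in Gb3-79 epidermis and no fiber library over 0.0263 FPKM. Gohir.D01G126900 (ratio 22.5) went from 15.6 and 32.0 FPKM at 0 DPA to 0.196 and 0.297 FPKM at 2 DPA in GhTM-1 epidermis, and from 16.7 and 19.6 to 3.19 and 1.68 FPKM in that of Gb3-79. Gohir.D11G154200 (ratio 22.1) went from 5.02 and 15.2 to 0.0963 and 0.777 FPKM in GhTM-1 and from 28.9 and 21.4 to 0.720 and 1.51 FPKM in Gb3-79. In these 3 genes no library other than those of wild-type 0 DPA epidermis exceeded 3.19 FPKM.

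Not all members with a large ratio behaved in that way. Gohir.D13G192900 (ratio 12.7) held 26.8 to 34.0 FPKM in wild-type epidermis at 0 DPA and 21.9 to 29.5 FPKM at 2 DPA, against 0.0103 to 2.11 FPKM in GhMD17. Its fiber level of 53.1 and 54.6 FPKM in GhTM-1 exceeded that of the epidermis (log2 difference 0.91, SE 0.20, limma adjusted p = 0.0239). Gb3-79 had 25.9 and 43.3 FPKM in fiber, beside 21.9 and 22.7 FPKM in 2 DPA epidermis. Gohir.A08G101032 was listed at 0 in both GhMD17 libraries of 0 DPA and stood at 11.2 and 12.7 FPKM in GhTM-1 and 24.3 and 28.2 FPKM in Gb3-79. In Gb3-79 fiber it was at 28.3 and 18.2 FPKM, above both the epidermis (limma adjusted p = 0.00835) and the GhTM-1 fiber (limma adjusted p = 0.0227). GhTM-1 had 11.9 and 9.76 FPKM in fiber, beside 5.98 and 7.60 FPKM in 2 DPA epidermis. The remaining members of the 10 with the largest ratios were Gohir.A10G075800, Gohir.A10G170000, Gohir.A05G331000, Gohir.D07G209400 and Gohir.D05G262300, whose GhMD17 libraries ran from 0 to 2.90 FPKM.

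A single member, Gohir.A01G231300, was listed at 0 in all 4 GhMD17 libraries. Its wild-type values were unsteady, with 78.9 and 48.6 FPKM in GhTM-1 and 19.3 and 11.5 FPKM in Gb3-79 at 0 DPA, and 0 and 3.63 FPKM and 4.05 and 63.6 FPKM in the 2 DPA epidermis. An FPKM of exactly 0 from this software can be a failed estimate, and no ratio is given for this gene.

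Within GhMD17 the members were lower at 0 than at 2 DPA. Their median was 1.30 and 1.24 FPKM in the 0 DPA libraries and 2.79 and 3.02 FPKM in the 2 DPA libraries, beside 17.1 to 30.6 FPKM in the wild-type libraries. Both 0 DPA libraries lay under both 2 DPA libraries in 77 members, and over them in 8. Among the 13502 orthologs expressed in wild-type 0 DPA epidermis the same orders held for 19.0% and 20.9%. The highest GhMD17 library, which set the ratio of the rule, was one of 2 DPA in 95 members. At 0 DPA 21 and 19 members were listed at 0, against 1 and 2 members at 2 DPA. These libraries chose the members, so no test was made.

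A low level was measured in GhMD17 at 2 DPA. Over the 119 members, the 2 DPA libraries of GhMD17 stood at a median of 15.2% and 15.97% of the mean of GhTM-1 epidermis at that stage, and the 0 DPA libraries at 4.74% and 4.90% of GhTM-1 epidermis at 0 DPA. The GhTM-1 epidermis of 2 DPA was cut after the fibers were taken, whereas GhMD17 gave the whole layer, so these references are unlike. Against GhTM-1 epidermis of 0 DPA the medians of the GhMD17 2 DPA libraries were 10.9% each, and against GhTM-1 fiber 11.2% and 10.6%. Among the members, 32 were under 0.5 FPKM in both GhMD17 libraries of 0 DPA. Their medians at 2 DPA were 8.07% and 9.48% of GhTM-1 epidermis of 2 DPA, against 17.6% and 18.8% for the other 87. By these medians, the genes nearest to 0 at anthesis were also the lower group at 2 DPA. The GhMD17 values belong to libraries that the rule used, and the 32 were picked on their 0 DPA values, so they are given as a description.

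**Figure D3:**
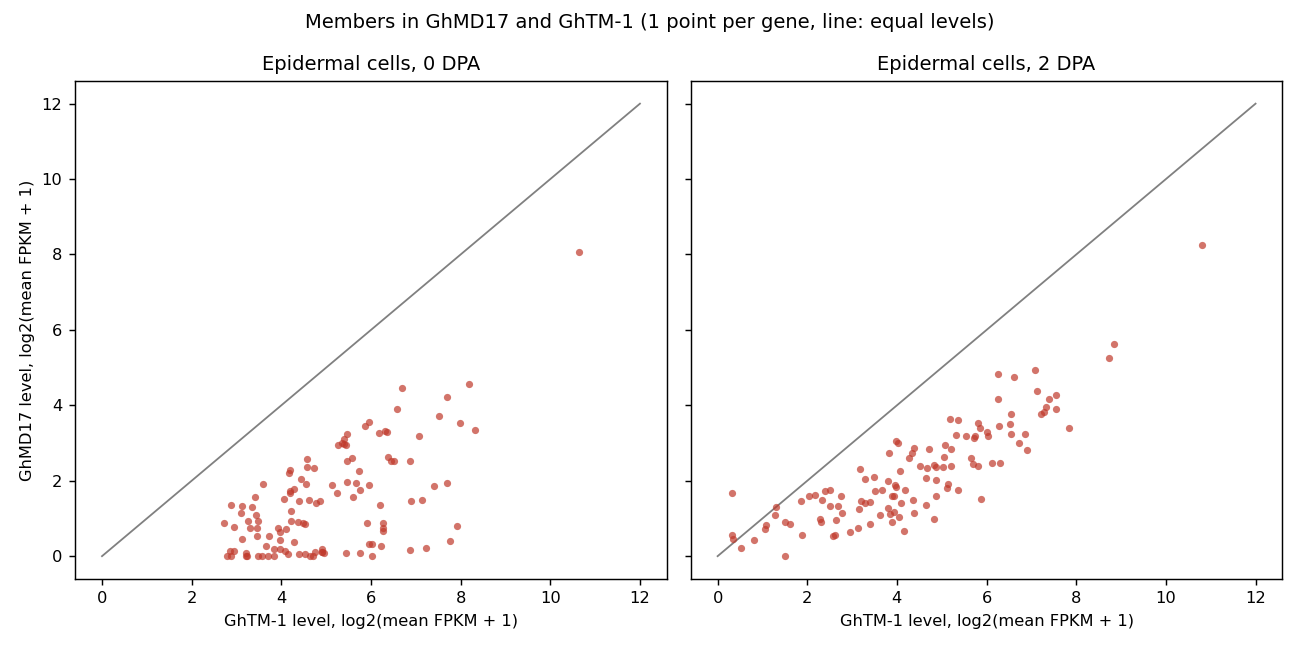
Mean level of each of the 119 members in GhMD17 (vertical axis) against GhTM-1 (horizontal axis) in epidermal cells at 0 DPA (left) and 2 DPA (right), as log2(mean FPKM + 1), with a line at equal levels. At 0 DPA many points rest near 0, at 2 DPA most form a band below the line, and a few genes lost from GhTM-1 by 2 DPA reach the line.

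In the wild type the members did not share a single course after anthesis. In 106 of 119 members (89.1%) every wild-type epidermal library of 2 DPA was still above every GhMD17 library, an order seen in 5.54% of all tested orthologs and in 11.2% of those expressed at 0 DPA. Every fiber library was above every GhMD17 library in 93 members (78.2%), against 9.13% and 19.3%. The rule fixed the low GhMD17 values, so nothing is read from these counts beyond the 13 and 26 exceptions. In epidermal cells the members tended to be lower at 2 than at 0 DPA. Both libraries of 2 DPA lay below both of 0 DPA in 64 members in GhTM-1 (53.8%, against 30.5% of expressed orthologs) and in 69 in Gb3-79 (58.0%, against 20.7%), and above them in 22 and 9 (16.2% and 20.6% of expressed orthologs). The median ratio of 2 to 0 DPA was 0.73 in GhTM-1 and 0.70 in Gb3-79. The rule chose on high 0 DPA values, so this order was not tested and nothing is read from it.

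Fiber cells at 2 DPA split the list. The ratio of fiber to 2 DPA epidermis had a median of 1.52 in GhTM-1 and 1.55 in Gb3-79. In GhTM-1 both fiber libraries lay above both epidermal libraries of 2 DPA in 63 members and below them in 18, beside 22.5% and 35.7% of expressed orthologs. In Gb3-79 they lay above in 65 and below in 32, beside 23.3% and 40.8%. In both lines together, the fiber libraries lay above the epidermal libraries in 55 members and below them in 13, beside 14.3% and 25.5% of expressed orthologs. Set against the epidermis of 0 DPA, fiber was above in 51 members and below in 50 in GhTM-1 (23.4% and 48.6% of expressed orthologs) and above in 47 and below in 48 in Gb3-79 (23.8% and 45.3%). The rule chose on high 0 DPA values, so nothing is read from the order against 0 DPA. The lowest of the 4 fiber libraries exceeded 5 FPKM in 89 members, whereas in 17 no fiber library reached 5 FPKM. Neither count was made over expressed orthologs.

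For 10 members all 4 fiber libraries lay under 1/3 of the lowest wild-type 0 DPA library, a group picked after the values were seen. The same order was not counted over expressed orthologs. By group means, fiber was under 1/3 of 0 DPA epidermis in 30 members in GhTM-1 and 28 in Gb3-79. Among the 13502 expressed orthologs this held for 1299 and 1179. The rule chose on high 0 DPA values, so nothing is read from these counts. In 5 of the 10 every fiber library also lay below the highest GhMD17 library. The most abundant of the 10 at 2 DPA was Gohir.A08G088800. That gene was at 78.1 and 82.8 FPKM in GhTM-1 and 64.2 and 75.7 FPKM in Gb3-79 at 0 DPA, and at 29.6 and 47.6 FPKM and 64.0 and 68.3 FPKM in the 2 DPA epidermis. Its fiber cells had only 2.72 and 3.49 FPKM in GhTM-1 and 1.63 and 0.923 FPKM in Gb3-79, less than the 7.05 to 10.4 FPKM of GhMD17. It was the single member called lower in fiber in both lines (4.10% of all tested and 8.72% of expressed orthologs), with log2 differences of -3.24 in GhTM-1 (SE 0.25, limma adjusted p = 0.000124) and -4.90 in Gb3-79 (SE 0.25, limma adjusted p = 3.54e-06). Its mean in the 2 DPA epidermis was 0.48 of that at 0 DPA in GhTM-1 and 0.95 in Gb3-79. In each of the other 9 this ratio was under 1/3 in both lines.

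The other 9 were already down in the 2 DPA epidermis. Gohir.D11G204200 ranged from 5.55 to 9.81 FPKM in the wild-type libraries of 0 DPA, from 0.0741 to 3.18 FPKM in 2 DPA epidermis and from 0 to 0.412 FPKM in fiber. Gohir.A05G199700 ranged from 5.72 to 11.8 FPKM at 0 DPA, from 0.476 to 1.72 FPKM in 2 DPA epidermis and from 0.193 to 0.421 FPKM in fiber. Gohir.A07G231300 likewise had 5.82 to 8.40 FPKM at 0 DPA and 0 to 1.10 FPKM in fiber. These genes, together with Gohir.D13G077100, Gohir.D11G154200, Gohir.D01G126900, Gohir.A05G158700, Gohir.D08G157200 and Gohir.A10G170000, had their highest wild-type level at anthesis in both lines. In 13 members, which include these 9, the mean of the 2 DPA epidermis was under 1/3 of that at 0 DPA in both lines. Line by line this held for 27 members in GhTM-1 and 14 in Gb3-79, beside 168 and 48 of the 13502 expressed orthologs. Nothing is read from these counts, since the rule chose on high 0 DPA values.

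**Figure D4:**
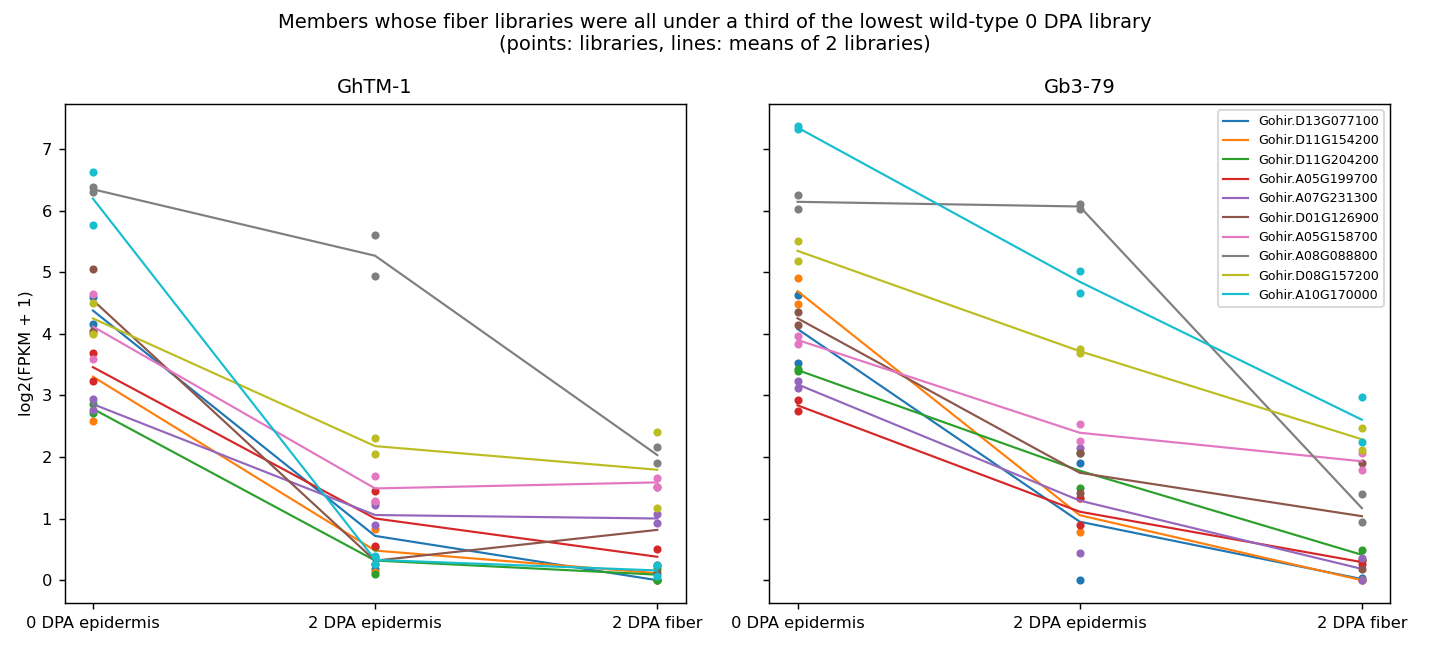
Levels as log2(FPKM + 1) of the 10 members whose fiber libraries all lay under 1/3 of the lowest wild-type 0 DPA library, in 0 DPA epidermis, 2 DPA epidermis and 2 DPA fiber of GhTM-1 (left) and Gb3-79 (right). Points are libraries and lines join means of 2 libraries. Gohir.A08G088800 drops most between 2 DPA epidermis and fiber, and the others between 0 and 2 DPA epidermis.

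Fiber and epidermal cells at 2 DPA were compared by test, since the libraries of these groups did not put genes on the list. They did remove the 5 genes far higher in fiber, all of which were called higher in fiber in both lines, so the counts here are without the top of that range. In GhTM-1 20 of the 119 members (16.8%) were higher in fiber and 1 was lower, where all tested orthologs gave 1.17% higher and 5.94% lower, and expressed orthologs 2.62% and 10.8%. In Gb3-79 41 members (34.5%) were higher and 11 lower, where all tested orthologs gave 3.62% and 11.6%, and expressed orthologs 6.71% and 18.0%. The median log2 difference of the members was 0.57 in GhTM-1 and 0.58 in Gb3-79, against -0.09 and -0.11 over all tested orthologs. Calls are at an adjusted p under 0.05 by limma on log2(FPKM + 1) with Benjamini-Hochberg adjustment over 42627 orthologs. The tests rest on a spread shared by all groups, including the wild-type 0 DPA and GhMD17 libraries that chose the members. Whether this favoured calls among the members was not tested, so the shares beside other orthologs are a description. The GhTM-1 count of members higher in fiber changed with the libraries fitted, for a cause that was not tested. It fell to 0 of 119 when only the 4 libraries compared were fitted, and to between 2 and 7 without any 1 of those libraries, lowest without fiber replicate 1. The 41 of Gb3-79 became 26 in the former case and between 21 and 27 in the latter, and the 11 lower ones became 5 and between 7 and 10.

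For 15 members the higher level in fiber was called in both lines (0.678% of all tested and 1.78% of expressed orthologs). The largest changes among them were in Gohir.A03G063500, Gohir.A13G099100, Gohir.D05G134700 and Gohir.D03G055300. Gohir.A03G063500 rose from 41.7 and 68.2 FPKM in GhTM-1 epidermis to 109 and 134 FPKM in fiber, and from 22.0 and 26.5 to 105 and 92.1 FPKM in Gb3-79, where the log2 difference was 1.99 (SE 0.27, limma adjusted p = 0.000911). In GhMD17 the same gene had 0.180 and 0.311 FPKM at 0 DPA and 4.44 and 4.14 FPKM at 2 DPA. Gohir.A13G099100 rose from 86.5 and 98.8 to 195 and 199 FPKM in GhTM-1 and from 130.1 and 99.1 to 335 and 313 FPKM in Gb3-79. Gohir.D05G134700 rose from 181 and 155 to 344 and 302 FPKM in GhTM-1 and from 88.6 and 94.8 to 269.7 and 292 FPKM in Gb3-79. Gohir.D03G055300 rose from 23.3 and 25.8 to 59.6 and 57.9 FPKM in GhTM-1 and from 42.2 and 37.0 to 92.9 and 86.4 FPKM in Gb3-79. Fiber and epidermal libraries of a line did not overlap in any of the 4 genes, and the ratio of mean FPKM lay between 1.93 and 4.07. The 4 calls in GhTM-1 were lost when only the libraries compared were fitted (limma adjusted p from 0.0526 to 0.112), and all but that of Gohir.D03G055300 also without single libraries of GhTM-1 (limma adjusted p from 0.0640 to 0.191 where lost). That of Gohir.D05G134700 was lost with a replicate block as well (limma adjusted p = 0.0508).

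Calls in a single line were more frequent in Gb3-79, for the members as for expressed orthologs. In Gb3-79 but not in GhTM-1, 26 members were called higher and 10 lower, beside 4.93% and 9.24% of expressed orthologs. In GhTM-1 but not in Gb3-79, 5 were called higher and 0 lower, beside 0.844% and 2.07%. No member had opposite calls, and 62 had none. The difference between the lines was itself tested. It was called for 0 of 119 members by limma, where 0.122% of tested orthologs were called higher and 0.190% lower, and 0.185% and 0.0518% of expressed ones. At an unadjusted p under 0.05 it passed for 13 members (10.9%, against 9.53% of expressed orthologs). The nearest was Gohir.D10G014600 (limma adjusted p = 0.0963). In GhTM-1 it was at 36.3 and 34.6 FPKM in epidermis and 40.6 and 32.3 FPKM in fiber, but in Gb3-79 at 35.3 and 38.3 FPKM in epidermis and 11.7 and 12.2 FPKM in fiber. In both lines it had come down from 84.7 to 237 FPKM at 0 DPA.

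**Figure D5:**
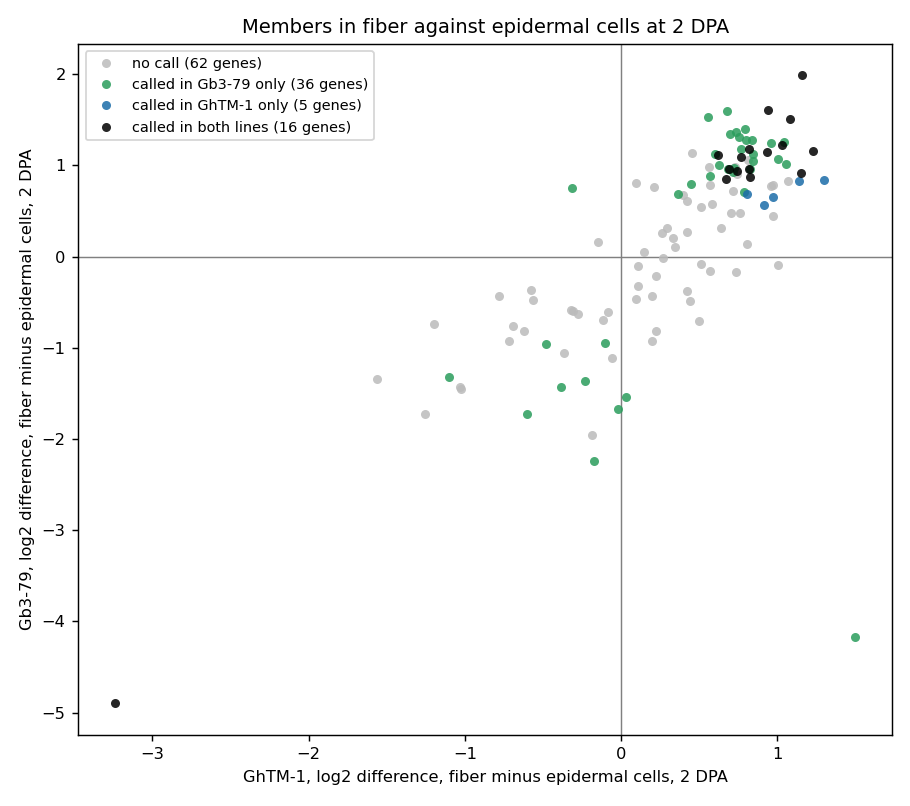
Log2 difference on the log2(FPKM + 1) scale, fiber minus epidermal cells of 2 DPA, for each of the 119 members, in GhTM-1 (horizontal axis) and Gb3-79 (vertical axis), coloured by where the gene was called. Most called members lie in the upper right with higher levels in fiber of both lines, and Gohir.A08G088800 lies alone at the lower left. Gohir.A01G231300, at the lower right, was listed at 0 in both Gb3-79 fiber libraries.

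The members were also compared between the wild-type lines at 2 DPA. In epidermal cells 14 members were higher and 11 lower in Gb3-79 than in GhTM-1 by limma at an adjusted p under 0.05 (11.8% and 9.24%, against 5.91% and 3.60% of all tested and 7.75% and 3.44% of expressed orthologs). In fiber cells 11 were higher and 7 lower (9.24% and 5.88%, against 3.85% and 3.29% of all tested and 5.22% and 3.92% of expressed orthologs). Of these, 6 were higher and 5 lower in both cell types, beside 3.11% and 1.70% of expressed orthologs. No member was called in opposite directions in epidermal and fiber cells, as were 0.0148% of expressed orthologs. Fitting only the libraries compared gave 6 and 5 calls in epidermis and 4 and 5 in fiber. Without any 1 of those libraries there were 9 to 12 and 5 to 8 calls in epidermis and 5 to 7 and 4 to 8 in fiber. At 0 DPA, where the libraries belong to the rule and no test was made, both Gb3-79 libraries lay above both GhTM-1 libraries in 42 members and below them in 28, beside 29.9% and 28.3% of expressed orthologs.

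Among the genes higher in Gb3-79, Gohir.A10G170000 stood out. At 0 DPA it was at 53.3 and 98.1 FPKM in GhTM-1 and 164 and 160.1 FPKM in Gb3-79. By 2 DPA it was nearly gone from GhTM-1, with 0.206 and 0.311 FPKM in epidermis and 0.0524 and 0.184 FPKM in fiber, while Gb3-79 kept 31.6 and 24.4 FPKM in epidermis and 3.72 and 6.85 FPKM in fiber. The lines differed by 4.52 in epidermis (log2, SE 0.33, limma adjusted p = 1.54e-05) and by 2.45 in fiber (SE 0.33, limma adjusted p = 0.00111). Gohir.D11G197900 followed in the epidermis, at 0.276 and 2.67 FPKM in GhTM-1 and 19.5 and 10.5 FPKM in Gb3-79 (limma adjusted p = 0.00301, and 0.0746 when only the libraries compared were fitted). Gohir.D04G142500 led in fiber, with 1.41 and 2.51 FPKM in GhTM-1 and 24.1 and 24.4 FPKM in Gb3-79 (log2 difference 3.12, SE 0.42, limma adjusted p = 0.00111).

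The reverse held for Gohir.A06G155300, Gohir.D09G097200 and Gohir.D01G064400, which were higher in GhTM-1. Gohir.A06G155300 was at 72.1 and 43.4 FPKM in GhTM-1 epidermis and 6.22 and 12.7 FPKM in that of Gb3-79, and at 113 and 78.5 against 8.66 and 7.15 FPKM in fiber (log2 difference -3.42, SE 0.37, limma adjusted p = 0.000229). At 0 DPA the same gene was at 31.2 and 18.6 FPKM in GhTM-1 and 17.9 and 14.7 FPKM in Gb3-79, and GhMD17 of that stage listed it at 0. Gohir.D09G097200 was at 258 and 198 FPKM in GhTM-1 and 46.6 and 58.2 FPKM in Gb3-79 epidermis (limma adjusted p = 0.000661). At 0 DPA its libraries overlapped, with 83.4 and 64.4 FPKM in GhTM-1 and 43.7 and 76.1 FPKM in Gb3-79. Gohir.D01G064400 had 35.3 and 43.2 FPKM in GhTM-1 fiber and 11.5 and 10.2 FPKM in Gb3-79 fiber (limma adjusted p = 0.0137). Its fiber call was lost without any 1 of the 4 fiber libraries, at adjusted p from 0.0535 to 0.0914.

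By identifier, 56 members lie on A chromosomes, 62 on D chromosomes and 1 on an unplaced sequence, beside 49.8% and 50.2% of expressed orthologs on A and D. For 117 of them the paired *G. barbadense* gene carries the same chromosome name. A12 and D12, where the study places the loci N1 and n2, held 1 and 2 members (0.840% and 1.68%, beside 4.01% and 3.99% of expressed orthologs). Close identifiers joined 9 members into 4 groups, whose sequence likeness was not examined here. Gohir.A04G019100 and Gohir.A04G019200 are next to each other by number. The former ranged from 86.2 to 151 FPKM in wild-type epidermis at 0 DPA and from 291 to 352 FPKM in fiber. The latter ranged from 232 to 329 FPKM and from 629 to 884 FPKM in the same groups, with 10.3 to 47.8 FPKM in GhMD17. The pair Gohir.D04G142400 and Gohir.D04G142500 was higher in Gb3-79 than in GhTM-1 in both cell types of 2 DPA, and at 0 DPA it was at 11.8 to 19.4 and 14.0 to 25.9 FPKM in GhTM-1 against 26.6 to 41.2 and 147 to 161 FPKM in Gb3-79. Gohir.D06G026000, Gohir.D06G026900 and Gohir.D06G027100 all read 0.177 FPKM or less in GhMD17 at 0 DPA and 0.722 to 4.90 FPKM at 2 DPA.

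Lists of MYB genes and of ARF genes, which encode auxin response factors, were taken from the study, which picked at least part of them on the same samples, so they are not independent evidence. Of 20 MYB genes 4 were members, and of 20 ARF genes none was, beside 119 of the 42627 tested and of the 13502 expressed orthologs. How many of the listed genes were among the expressed orthologs was not counted. In fiber against epidermal cells, 1 MYB gene was higher and 5 were lower in GhTM-1, and 4 were higher and 7 lower in Gb3-79. The higher gene in GhTM-1 and 2 of the 4 in Gb3-79 were the MYB106 homologs, and no member was among the lower ones. Of the ARF genes 14 were lower and 0 higher in GhTM-1, and 15 were lower and 1 higher in Gb3-79 (limma, adjusted p under 0.05). All tested orthologs gave 5.94% lower and 1.17% higher in GhTM-1, and 11.6% lower and 3.62% higher in Gb3-79.

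The 5 genes left out were Gohir.A08G217900, Gohir.A09G157800, Gohir.D05G123900, Gohir.D05G219300 and Gohir.D09G117300. Gohir.A09G157800 was at 89.1 and 122 FPKM in GhTM-1 and 158 and 154 FPKM in Gb3-79 at 0 DPA, with 7.22 to 27.9 FPKM in GhMD17. In fiber it reached 374 and 511 FPKM in GhTM-1 and 710.2 and 614 FPKM in Gb3-79. Gohir.D09G117300 ranged from 57.7 to 71.0 FPKM in wild-type epidermis at 0 DPA and from 139 to 173 FPKM in fiber, with 3.95 to 9.25 FPKM in GhMD17. At 0 DPA and in GhMD17 these genes resembled the members, and the fiber limit alone set them apart.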

How the data were processed

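Reads of laser-captured cells were mapped by the authors with TopHat2 2.1.1, those of Gb3-79 to the *G. barbadense* genome and all others to that of *G. hirsutum*, and only uniquely mapped reads were kept. SAMtools 1.5 is also named in the labels. With Cufflinks 2.2.1 the authors then derived FPKM separately in every library, without pooling, and these were deposited for all genes and for the *G. hirsutum* genes paired with a *G. barbadense* ortholog. Levels are therefore relative to the rest of each library. Read counts were not used here, so the counting error of a gene is unknown, and the 2 libraries per group limit the precision. An FPKM of 0 may be a failed estimate.

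The members were found on the ortholog table. The members, gene lists, tests and alternatives were chosen with earlier results of these data known. Tests used limma 3.58.1 in R 4.3.3 on log2(FPKM + 1), with 8 group means fitted to all 16 libraries, a trended eBayes step and Benjamini-Hochberg adjustment over 42627 orthologs within each of 5 two-sided contrasts of the wild-type 2 DPA groups. Differences on this scale understate the change of low genes. Wild-type 0 DPA and GhMD17 libraries chose the members and entered no contrast, but they contributed to the residual spread of every test. Whether that favoured calls among the members was not tested. The procedure was tested on simulated data. Other values and plots were made in Python 3.11.15 with pandas 2.3.3 and matplotlib 3.10.9.

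Genes were named by a rule. It took the 10 members with the highest wild-type 0 DPA mean, the 10 with the largest ratio to GhMD17 and members at 0 throughout GhMD17. It also took the 4 with the largest change in each direction called in fiber of both lines, and the 2 for each contrast of the lines, where libraries did not overlap. It further took the genes next to the ratio limit. The MYB members were added by name, and genes named beyond these were chosen after their values were seen. Gene names other than those of the MYB and ARF genes, gene coordinates and sequences were not used here, so genes are given by identifier, and the captured cells were not checked against marker genes of other cell types.

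The alternatives were a pseudocount of 0.1, only orthologs with a group mean over 1 FPKM, a replicate block, libraries rescaled by their median ratio to the mean library, only the libraries compared, the limits of the study (unadjusted p under 0.01, mean over 5 FPKM, ratio over 1.5), other limits of the rule and leaving out each replicate.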

Additional observations from a re-analysis of the deposited data

Results flagged for a closer look

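The list above needs an ortholog in *G. barbadense*, and 22862 *G. hirsutum* genes had none. Among these, 88 genes had both GhTM-1 libraries of 0 DPA over 5 FPKM and at least 3 times the highest GhMD17 library (0.385%). These genes are used in no comparison above. On the same 2 libraries, 215 of the 52514 orthologs passed (0.409%), and 124 of those passed in Gb3-79 as well. Both shares are over all genes, expressed or not, and the fiber limit was not applied. Of the 88 genes, 4 were listed at 0 in all GhMD17 libraries. The most abundant was Gohir.A07G154400, at 2128 and 1162 FPKM in GhTM-1 and at most 212 FPKM in GhMD17, followed by Gohir.D04G098600, at 989 and 1136 FPKM and at most 303 FPKM. Gohir.D02G095351 was at 228 and 873 FPKM and listed at 0 in GhMD17. No test was made.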

How the results depend on the processing

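With only the libraries compared, members higher in fiber went from 20 to 0 in GhTM-1 and from 41 to 26 in Gb3-79, members lower in Gb3-79 fiber from 11 to 5, calls between the lines in epidermis from 14 and 11 to 6 and 5, and members higher in Gb3-79 fiber than in GhTM-1 fiber from 11 to 4. Fewer libraries and fewer orthologs enter that fit. The limits of the study gave 33 higher and 2 lower in GhTM-1 fiber. Testing only orthologs with a group mean over 1 FPKM gave 3 lower in GhTM-1 fiber, and the pseudocount of 0.1 gave 7 members lower in Gb3-79 than in GhTM-1 epidermis. For the difference between lines in the change to fiber, an unadjusted p under 0.01 passed 1 member higher and 5 lower. The cause of these shifts was not tested. A ratio of 2 in the rule gave 228 members and a ratio of 5 gave 59. Rescaled libraries gave 112, a minimum of 10 FPKM gave 89, and 124 genes passed with those far higher in fiber kept.

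Leaving out 1 library at a time, members higher in fiber ranged from 2 to 7 in GhTM-1 and from 21 to 27 in Gb3-79, and lower ones from 1 to 2 and from 7 to 10. For members higher in fiber, the lowest counts came without GhTM-1 fiber replicate 1 and, in Gb3-79, without epidermal replicate 1 or fiber replicate 2. The difference between lines gave 0 to 1 lower. Between the lines, 9 to 12 members were higher and 5 to 8 lower in epidermis, and 5 to 7 and 4 to 8 in fiber. The rule itself gave 126 to 176 members. For Gohir.D11G181000 in GhTM-1 the log2 difference of 0.10 was 0.47 without epidermal replicate 1 but turned to -0.28 without epidermal replicate 2 and to -0.12 without fiber replicate 1, on neither side past the threshold. Of 234 further values for named genes, 205 kept direction and side of the threshold, 27 kept direction but lost the call, and these 2 turned.

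The correlations of same-numbered libraries over the 28 pairs of groups ran from -0.13 to 0.21. Between 2 DPA epidermis and fiber they were 0.14 in GhTM-1 and 0.06 in Gb3-79. The replicate block fitted 1 term over all groups, so pairing within a line was not tested. With the replicate block, 18 members were higher (14 of them among the 20) and 1 lower in GhTM-1 fiber, against 43 and 10 for Gb3-79, the difference between lines 0 and 0, and calls between the lines 14 and 10 in epidermis and 9 and 8 in fiber.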
